A study of Homo sapiens with 12 samples.

Results

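The ABC transporter family was taken as the genes whose symbol is ABC, a subfamily letter from A to G and a number, with *ABCA1* and *ABCG1* left out. This took 35 of the 23533 genes in the count tables of 2 established human leukemia B-cell lines, MEC1 and JVM2. All 35 were in the MEC1 table of 22441 genes and 29 were in the JVM2 table of 17144 genes. *ABCA9*, *ABCB1*, *ABCC3*, *ABCC6*, *ABCC12* and *ABCG2* were in the MEC1 table alone, and neither table held a gene with fewer than 10 counts over its 6 libraries. RNA of 4 cell populations was sequenced, with 3 biological replicates of each. MEC1-2B17 and JVM2-2B17 cells were electroporated with the coding sequence of *UGT2B17* in the pcDNA6 vector, for stable expression under blasticidin. JVM2-CTRL cells carried the empty pcDNA6 vector under the same antibiotic. MEC1-CTRL cells are labelled as a stable repression of *UGT2B17* by shRNA and were kept in puromycin, so in MEC1 a difference in *UGT2B17* cannot be told apart from one in construct and antibiotic. No source used here says whether the replicates came from separate electroporations, so *P*-values measure the spread between these samples, which may be that of repeated cultures of 1 derived population.

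ABC proteins bind and hydrolyse ATP on a conserved cassette, and most of them use it to move a substrate across a membrane. Subfamily A handles lipids, subfamily B holds the drug exporter P-glycoprotein and transporters of mitochondria and lysosomes, subfamily C exports organic anions such as glucuronides and eicosanoids, and subfamily D imports fatty acids into peroxisomes. *ABCE1* and the ABCF proteins have the cassette but no membrane domain and act on ribosomes. *UGT2B17* joins glucuronic acid to steroids and other lipophilic compounds, and the charged products need exporters such as *ABCC4*, which also carries prostaglandins, to leave a cell.

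The questions were whether family members differed between 2B17 and CTRL cells of a line, whether that difference was the same in both lines, and how the CTRL cells of the lines compared. Libraries held 31762649 to 37744991 counts in MEC1 and 8809179 to 11231330 in JVM2, so a gene of the same abundance was counted less precisely in JVM2. One library stood apart from the others of its group in MEC1-CTRL and in JVM2-2B17. The mean chi-square per gene between libraries was 7.56 and 6.11 for MEC1-CTRL replicate 3 against the others and 2.34 between those, and 7.7 and 7.89 for JVM2-2B17 replicate 2 against 2.14. In JVM2-CTRL it was 4.89 and 3.08 for replicate 1 against the others and 2.19 between those, and in MEC1-2B17 it was 2.26 to 3.44. Counts of members called are also given without MEC1-CTRL replicate 3 and without JVM2-2B17 replicate 2. Levels are given as CPM, that is counts brought to a common library size, scaled by the trimmed mean of M-values (TMM), with the SD over 3 libraries. Differences are on the log2 scale, 2B17 minus CTRL, from edgeR's quasi-likelihood test, and are called at a Benjamini-Hochberg adjusted *P* below 0.05 over all genes tested in the comparison. *UGT2B17* itself rose from 10.99 ± 0.691 to 21.1 ± 1.37 CPM in MEC1 (0.94, SE 0.0687, adjusted *P* = 2.02e-09) and from 27.8 ± 1.83 to 38.7 ± 5.67 CPM in JVM2 (0.48, SE 0.105, adjusted *P* = 0.00481). All 8 B-cell markers were present in both lines, at a summed 3340 to 4240 CPM. The summed T-cell markers stayed at or below 0.639 CPM in MEC1 and none of the 5 was in the JVM2 table. Summed myeloid markers went from 2.32 to 2.76 CPM in MEC1-CTRL to 4.65 to 5.24 in MEC1-2B17, and from 5.41 to 6.58 in JVM2-CTRL to 11.1 to 13.8 in JVM2-2B17. That sum was carried by *ITGAM*, which went from 1.14 to 1.42 CPM to 3.76 to 4.07 in MEC1 and from 4.29 to 5.62 to 10.2 to 12.1 in JVM2. Of the other markers of the list, *CD14* was at most 0.151 CPM in any MEC1 library, *CSF1R* in MEC1 was at 0.668 to 0.894 CPM in CTRL and 0.326 to 0.613 in 2B17, and *LYZ* went from 0.261 to 0.447 in CTRL to 0.459 to 0.568 in 2B17 in MEC1 and from 0.199 to 0.466 to 0 to 0.226 in JVM2. The epithelial adhesion gene *CDH1* went from 24.8 to 28.3 CPM in MEC1-CTRL to 43.1 to 45.9 in MEC1-2B17, and the part of these markers in the differences below was not tested. The libraries are of whole populations, so fewer cells with a transcript and less of it per cell cannot be told apart.

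Most of the family's RNA, per length of exon, came from the members that do not transport. In MEC1-CTRL the 3 highest levels were those of *ABCE1*, which splits the ribosome into its subunits, at 45.6 ± 2.54 CPM per kb (SD, n = 3), of *ABCF2* at 31.2 ± 0.300 and of *ABCF1* at 29.98 ± 0.394. The same 3 genes led in JVM2-CTRL, at 31.4 ± 2.97, 26.2 ± 1.29 and 33.1 ± 0.954. *ABCE1* and *ABCF1* to *ABCF3* together made up 56.2% to 58.4% of the family's summed CPM per kb in the MEC1 libraries and 51.8% to 53.6% in those of JVM2. Below them in MEC1-CTRL stood the mitochondrial *ABCB10* at 17.4 ± 0.251 CPM per kb and then *ABCC4* at 11.9 ± 0.229, the highest of the plasma membrane exporters. *ABCC4* was the ninth of 29 members in JVM2-CTRL, at 8.93 ± 0.585, a level that overlapped that of its neighbour *ABCD3* (8.27 ± 0.249). The anion exporters *ABCC1* and *ABCC4* together held 9.46% to 10.2% of the sum in all 12 libraries. The canalicular exporter *ABCC2* lay at 0.0920 ± 0.0104 CPM per kb in MEC1-CTRL, below *ABCC4* by more than their spread.

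Many members differed between the arms in MEC1 and few in JVM2. In MEC1, 15 of the 30 members tested (50%) differed between arms, 7 higher and 8 lower in 2B17, where 41.7% of all 16581 genes were called, 20% higher and 21.6% lower. The median log2 difference over the 30 was -0.04 against 0.00 over all genes, and the median absolute difference 0.18 against 0.17. In JVM2, 3 of 25 (12%) were called and all 3 were lower, where 29.3% of 13021 genes were called, 14.1% higher and 15.3% lower. The JVM2 count depended on single libraries: it was 0 without CTRL replicate 1, 1 without CTRL replicate 2, CTRL replicate 3 or 2B17 replicate 1, and 6 without 2B17 replicate 2, when *ABCA2* was among them as higher (1.20). In MEC1 all 15 stayed called without CTRL replicate 3, and *ABCB4* and *ABCE1* came past the threshold. In JVM2 the median difference was -0.05 over the 25 members and the median absolute difference 0.15, against 0.18 over all genes. Of the 15 called in MEC1, 5 were over 2-fold and 8 over 1.3-fold, against 12.7% and 42.4% of all genes called there. None of the 3 in JVM2 reached 2-fold. One member, *ABCB6*, was called in both lines among the 24 tested in both, where 15.8% of 12243 genes were. In MEC1, *ABCA12*, *ABCA13*, *ABCC3*, *ABCC6* and *ABCC12* had too few counts to be tested, and in JVM2 *ABCA10*, *ABCA13*, *ABCC2* and *ABCC8*.

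**Figure D1:**
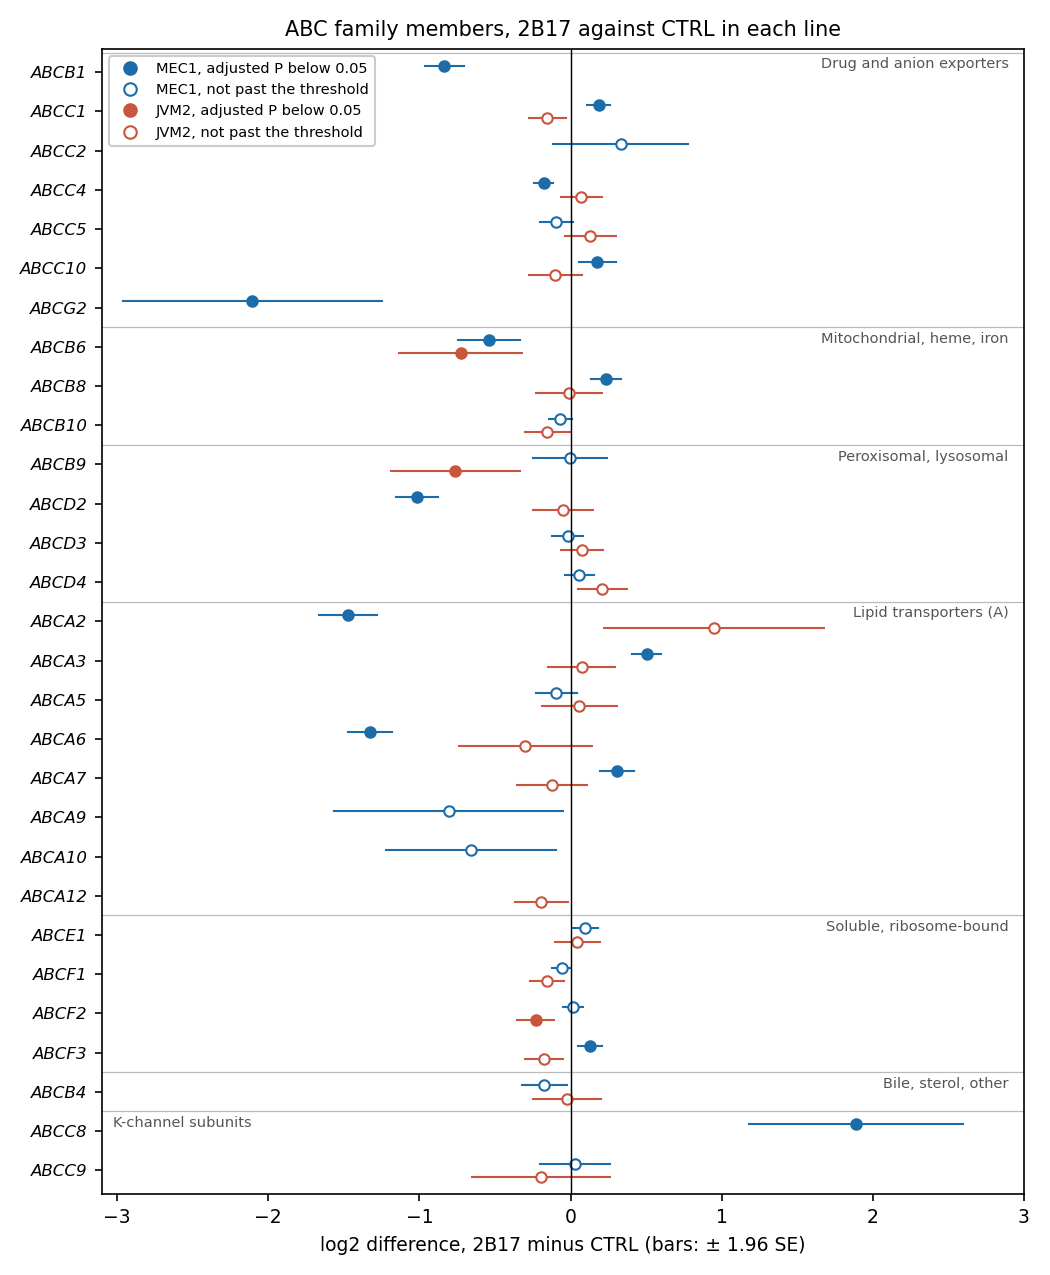
Log2 difference between 2B17 and CTRL cells (x axis) for ABC members tested (y axis, grouped by role), in MEC1 (blue) and JVM2 (red). Points are fitted differences, bars are 1.96 SE on each side and filled points passed an adjusted P of 0.05. The filled MEC1 points spread from -2.11 for ABCG2 to 1.89 for ABCC8, and the 3 filled JVM2 points, ABCB6, ABCB9 and ABCF2, lie below 0.

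Among the exporters of drugs and organic anions, MEC1-2B17 cells had less *ABCC4*, *ABCB1* and *ABCG2* and more *ABCC1* and *ABCC10*. Of 7 tested in MEC1, 2 rose and 3 fell, and of the 4 among them known to carry glucuronides or eicosanoids, 1 rose and 2 fell. Over all genes tested in MEC1, 20% were called higher and 21.6% lower. In JVM2 none of 4 was called by edgeR, where 29.3% of all genes were called. Among these 4, 1 had an unadjusted *P* under the threshold and DESeq2 called none. *ABCC4* (ENSG00000125257, chromosome 13 from 95019835 to 95301475 on the minus strand) encodes an exporter of prostaglandins, cyclic nucleotides and glucuronides, and positions here and below are those of GRCh38. It was at 102, 102 and 105 CPM in the MEC1-CTRL libraries and at 89.8, 92.1 and 90.6 in those of MEC1-2B17. Every 2B17 library was below every CTRL library, and the fall was small, from 103 ± 1.99 to 90.8 ± 1.17 CPM, 1.13-fold lower (-0.18, SE 0.0333, adjusted *P* = 0.000243). An exact two-sided permutation test of the means gave *P* = 0.1, the smallest that 3 against 3 allow. In JVM2, *ABCC4* was at 72.8, 75.7 and 82.7 CPM in CTRL and 78.1, 86.1 and 78.6 in 2B17, and the ranges overlapped. That difference of 0.07 (95% interval -0.06 to 0.21, adjusted *P* = 0.48) was not past the threshold.

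The difference of *ABCC4* between arms was itself lower in MEC1 than in JVM2, with a contrast of -0.24 on the log2 scale (SE 0.0759, adjusted *P* = 0.0174). Without JVM2-CTRL replicate 1, the lowest of the JVM2 libraries, that value was -0.21 and its adjusted *P* 0.0549. *ABCC1*, which exports glutathione conjugates and leukotriene C4, went the other way, from 78.6, 76.1 and 75.7 CPM in MEC1-CTRL to 85.5, 85.6 and 90.9 in MEC1-2B17 (0.19, SE 0.0374, adjusted *P* = 0.000516). In JVM2 it was at 90.5, 83.02 and 88.2 CPM in CTRL and 79.8, 75.1 and 80.3 in 2B17, with no overlap between arms and a difference not past the threshold (-0.15, adjusted *P* = 0.083). The contrast between the lines was 0.34 (SE 0.0702, adjusted *P* = 0.000778). *ABCC10*, a broad-range exporter of anions, rose slightly in MEC1 (0.18, adjusted *P* = 0.0311), a call lost with DESeq2 (0.0902) and without MEC1-CTRL replicate 1 (0.109), MEC1-CTRL replicate 2 (0.091) or MEC1-2B17 replicate 3 (0.0848). The organic anion exporter *ABCC5* was at 21.1, 21.9 and 20.3 CPM in CTRL and 19.8, 19.7 and 19.8 in 2B17 cells of MEC1 and was not called (-0.09, adjusted *P* = 0.186).

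*ABCB1*, which encodes P-glycoprotein and confers resistance to many drugs, was among the larger falls. It went from 21.6, 21.8 and 19.5 CPM in MEC1-CTRL to 12.3, 11.6 and 11.4 in MEC1-2B17, 1.78-fold lower (-0.83, SE 0.0654, adjusted *P* = 5.39e-09), and the arms were well apart. Its neighbour *ABCB4*, the phospholipid exporter of bile, lies on the same strand of chromosome 7, with *ABCB4* from 87401696 to 87480435 and *ABCB1* from 87503017 to 87713323. *ABCB4* was at 25.7, 23.3 and 19.7 CPM in CTRL and 21.4, 19.6 and 20 in 2B17, with overlapping arms and no call (-0.17, adjusted *P* = 0.078). Without MEC1-CTRL replicate 3 its adjusted *P* was 0.00193, at -0.27, and with the replicate number as a block it was 0.0332. *ABCG2*, the breast cancer resistance protein, was near the detection limit, with 14, 15 and 14 counts in the MEC1-CTRL libraries and 5, 3 and 1 in those of MEC1-2B17. The ratio of the summed counts was 4.44 (95% interval 2.13 to 10.4, covering counting error only), and the fitted difference was -2.11, SE 0.437, adjusted *P* = 0.00068. Requiring 10 counts in every library leaves it untested. Neither *ABCB1* nor *ABCG2* was in the JVM2 table.

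**Figure D2:**
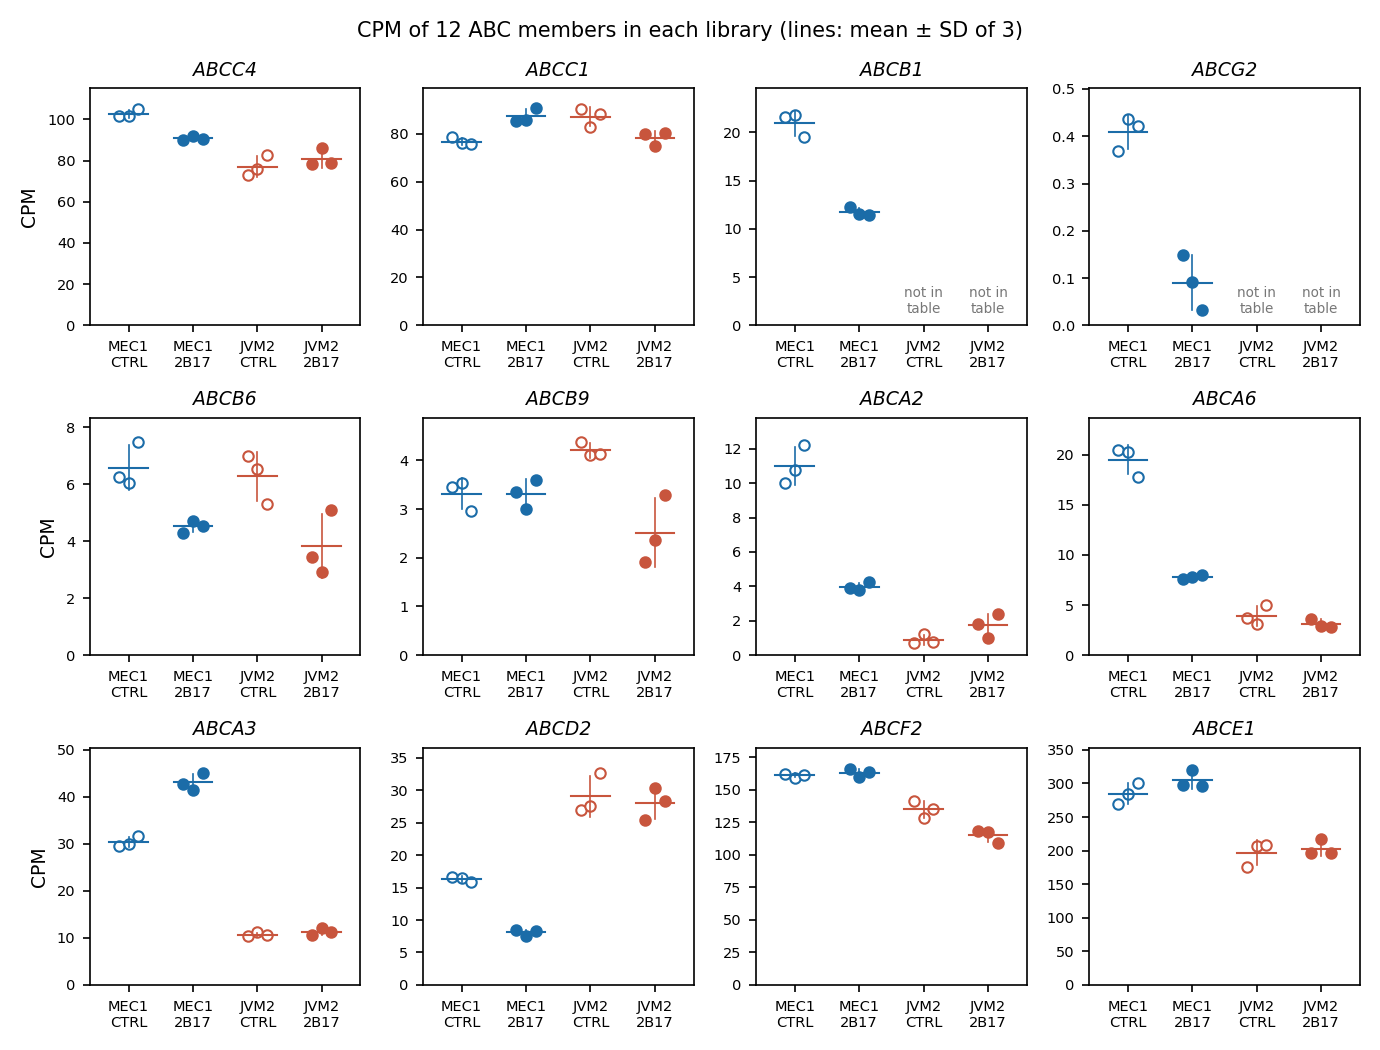
CPM (y axis, from 0) of 12 ABC members in each of the 12 libraries, with open points for CTRL and filled points for 2B17, MEC1 in blue and JVM2 in red. Horizontal lines are means and vertical lines SDs of 3 libraries. ABCB1, ABCA2, ABCA6 and ABCD2 drop between the MEC1 arms with no overlap, ABCA3 rises, and ABCB6 is lower in 2B17 in both lines.

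*ABCB6* was lower in the 2B17 cells of both lines. It encodes a porphyrin transporter that also carries the Langereis blood group (ENSG00000115657, chromosome 2 from 219209772 to 219218994 on the minus strand). It was at 6.23, 6.04 and 7.47 CPM in MEC1-CTRL and 4.29, 4.72 and 4.54 in MEC1-2B17, and at 6.97, 6.53 and 5.31 in JVM2-CTRL and 3.44, 2.93 and 5.09 in JVM2-2B17. In each line every 2B17 library lay below every CTRL library, although the nearest JVM2 libraries were 5.09 and 5.31 CPM. The fall was 1.45-fold in MEC1 (-0.54, SE 0.105, adjusted *P* = 0.000363) and 1.65-fold in JVM2 (-0.73, SE 0.208, adjusted *P* = 0.0199), and the exact permutation *P* was 0.1 in each line. The JVM2 call was lost without JVM2-CTRL replicate 1 (adjusted *P* = 0.0829), JVM2-CTRL replicate 2 (0.0695) or JVM2-2B17 replicate 1 (0.0754), at differences of -0.64, -0.70 and -0.65. The contrast between the lines was 0.19 with a 95% interval of -0.26 to 0.64 (adjusted *P* = 0.564), which leaves room for unequal falls. Of the 50-base stretches of *ABCB6*, 48.6% also lie in other annotated genes, most of them in an overlapping readthrough gene, ENSG00000284820, which neither table lists, so reads of both cannot be told apart.

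Of the other mitochondrial transporters, *ABCB8*, which takes part in iron export from mitochondria, rose in MEC1 from 23.5 ± 0.307 to 27.6 ± 1.12 CPM (0.24, SE 0.0518, adjusted *P* = 0.00115). *ABCB10*, which supports heme synthesis, was not called (-0.07, adjusted *P* = 0.182). In JVM2 the difference of *ABCB8* was -0.01 and that of *ABCB10* -0.15, neither past the threshold. The enzymes and carrier of heme synthesis were listed beside them: in MEC1, 3 of 9 rose and 4 fell, where 41.7% of all genes were called, and DESeq2 called 5 of the 9. In JVM2 none of 9 was called by edgeR, where 29.3% of all genes were called. There 1 had an unadjusted *P* under the threshold and DESeq2 called none. Chosen after their values were seen, *ALAD*, an early enzyme of the pathway, fell in MEC1 (-0.52, adjusted *P* = 2.5e-07), *UROS* fell (-0.15, adjusted *P* = 0.00532), and *CPOX* (0.36, adjusted *P* = 1.29e-07) and *FECH* (0.16, adjusted *P* = 0.00312) rose.

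The sequences just upstream of *ABCB6* and *ABCC4* are shown because these are the member called in both lines and the prostaglandin and glucuronide exporter, and that of *ABCA12* because its level separated the lines most. They are RefSeq promoter windows (GRCh38.p14), which 29 of the 35 members have, cut to the bases outside the annotated gene and read on the minus strand. Capitals mark matches on either strand. The motifs searched were the GC box, spelled GGGCGG, and the CCAAT box, searched by the letters of its name. The TATA box was searched as TATAAA. The core of the cyclic AMP response element was searched as TGACG, and the E box, bound by helix-loop-helix factors, as CANNTG.
ABCB6 promoter: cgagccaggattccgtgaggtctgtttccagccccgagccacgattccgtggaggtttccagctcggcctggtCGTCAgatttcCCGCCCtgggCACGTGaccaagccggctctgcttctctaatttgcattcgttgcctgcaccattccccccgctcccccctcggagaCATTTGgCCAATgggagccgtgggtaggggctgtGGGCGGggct
ABCC4 promoter: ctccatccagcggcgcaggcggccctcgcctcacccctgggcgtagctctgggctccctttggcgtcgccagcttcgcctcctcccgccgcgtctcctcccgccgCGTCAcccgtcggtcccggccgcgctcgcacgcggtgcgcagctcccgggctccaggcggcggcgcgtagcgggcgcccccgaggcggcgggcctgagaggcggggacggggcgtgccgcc
ABCA12 promoter: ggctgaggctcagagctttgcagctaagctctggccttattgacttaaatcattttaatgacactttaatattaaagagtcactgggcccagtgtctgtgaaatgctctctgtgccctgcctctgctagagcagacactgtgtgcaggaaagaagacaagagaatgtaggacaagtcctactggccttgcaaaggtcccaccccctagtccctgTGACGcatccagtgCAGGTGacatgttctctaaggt
They span chr2:219218995-219219208 (214 bases), chr13:95301476-95301701 (226 bases) and chr2:215138627-215138876 (250 bases). The *ABCB6* window held 2 GC boxes, 1 CCAAT box, 1 TGACG and 2 E boxes, the *ABCC4* window 1 TGACG and none of the others, and the *ABCA12* window 1 TGACG and 1 E box. Over all 35116 RefSeq windows of 250 bases, 42.6% held the GC box, 32% the CCAAT box, 10.7% the TATA box, 21.2% TGACG and 61.8% the E box. The full windows of those shown held 20 CpG pairs at *ABCB6*, 42 at *ABCC4* and 1 at *ABCA12*, against a median of 11 over all windows. A further *ABCA12* window, chr2:215032087-215032336, lies inside the annotated gene and is not shown. It held 1 CCAAT box, 6 E boxes and no TGACG, and which start the cells use was not tested. These are matches of letters and no binding was measured.

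Among the peroxisomal and lysosomal members, *ABCD2* fell in MEC1 and *ABCB9* in JVM2. *ABCD2*, an importer of very long-chain and polyunsaturated acyl-CoA (ENSG00000173208, chromosome 12 from 39550033 to 39619803 on the minus strand), was at 16.7, 16.4 and 15.9 CPM in MEC1-CTRL and 8.41, 7.596 and 8.23 in MEC1-2B17, 2.02-fold lower (-1.02, SE 0.0697, adjusted *P* = 8.89e-10). In JVM2 its level was higher in both arms and did not separate them, at 26.9, 27.6 and 32.6 CPM in CTRL and 25.5, 30.4 and 28.4 in 2B17 (-0.05, 95% interval -0.25 to 0.15). Its contrast between lines came to -0.96 (SE 0.118, adjusted *P* = 2.42e-06). Another peroxisomal importer, *ABCD3* (-0.02 in MEC1, 0.08 in JVM2) and the lysosomal cobalamin transporter *ABCD4* (0.06 and 0.21) were called in neither line. Of 6 partners of peroxisomal import and fatty acid oxidation, 2 rose and 1 fell in MEC1, where 41.7% of all genes were called, and DESeq2 called 1. In JVM2 edgeR called none of the 6, where 29.3% of all genes were called. There 1 had an unadjusted *P* under the threshold and DESeq2 called none.

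*ABCB9*, the lysosomal peptide transporter related to the antigen transporters, was called in JVM2. It was at 4.38, 4.104 and 4.14 CPM in JVM2-CTRL and 1.903, 2.36 and 3.28 in JVM2-2B17, on 21 to 44 counts a library (-0.76, SE 0.219, adjusted *P* = 0.0205). The call did not hold with DESeq2 (0.0769) or without JVM2-CTRL replicate 1 (0.0673), 2 (0.0536) or 3 (0.0562) or JVM2-2B17 replicate 1 (0.0932, at -0.57). In MEC1 the arms overlapped, at 3.44, 3.54 and 2.95 CPM in CTRL and 3.35, 3.002 and 3.596 in 2B17, with a difference of -0.0030 (95% interval -0.25 to 0.24). Its exons overlap those of *ARL6IP4* and *OGFOD2* on the other strand, and no source states that reads were counted by strand.

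The lipid transporters of subfamily A held the largest falls after that of *ABCG2*. Of 7 tested in MEC1, 2 rose and 2 fell, where 20% of all genes were called higher and 21.6% lower. The median difference of the 7, -0.66, was that of *ABCA10*, which was not called (adjusted *P* = 0.0762). Of 6 tested in JVM2 edgeR called none, where 29.3% of all genes were called. Among these 6, 2 had an unadjusted *P* under the threshold and DESeq2 called none. *ABCA2*, an endosomal and lysosomal lipid transporter abundant in the nervous system (ENSG00000107331, chromosome 9 from 137007234 to 137028915 on the minus strand), was at 10.02, 10.8 and 12.2 CPM in MEC1-CTRL and 3.88, 3.77 and 4.23 in MEC1-2B17, 2.77-fold lower (-1.47, SE 0.0981, adjusted *P* = 5.76e-10). In JVM2 it had 7, 13 and 7 counts in CTRL and 20, 9 and 21 in 2B17, with overlapping arms and no call (0.95, adjusted *P* = 0.0745). Without JVM2-2B17 replicate 2 that difference was 1.20 with an adjusted *P* of 0.0111, and edgeR's exact test gave 0.0415. The contrast between the lines was -2.42 (SE 0.376, adjusted *P* = 4.4e-05). *ABCA2* lies beyond the 60 Mb mark of chromosome 9, a stretch whose 470 tested genes had a median difference of -0.39 in MEC1, with 336 called lower and 14 higher. Within 1 Mb of it the median was -0.40 over 63 genes, 42 of them lower and none higher, and 2 fell further than *ABCA2*. In JVM2 the median over 359 genes of that part was 0.00. The part of this region in the fall of *ABCA2* was not tested.

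*ABCA6* (ENSG00000154262, chromosome 17 from 69078702 to 69141895 on the minus strand) went from 20.5, 20.2 and 17.8 CPM in MEC1-CTRL to 7.64, 7.75 and 7.98 in MEC1-2B17, 2.51-fold lower (-1.33, SE 0.0733, adjusted *P* = 4.15e-11). It belongs to a cluster of related genes on the minus strand of chromosome 17, with *ABCA9*, *ABCA10* and *ABCA5*. *ABCA9* had 27, 13 and 15 counts in MEC1-CTRL and 4, 15 and 10 in MEC1-2B17 (-0.81, adjusted *P* = 0.105), and *ABCA10* had 20, 19 and 19 in CTRL and 13, 13 and 8 in 2B17 (-0.66, adjusted *P* = 0.0762). *ABCA5* was better counted, at 17.1, 17.4 and 14.9 CPM in CTRL and 14.7, 15.8 and 15.8 in 2B17, and its arms overlapped (-0.09, adjusted *P* = 0.298). Of these 4 genes 1, *ABCA6*, was called in MEC1, and *ABCA9* was called as well with MEC1-2B17 replicate 2 left out (-1.26, adjusted *P* = 0.0336). In JVM2, *ABCA6* was at 3.69, 3.08 and 4.99 CPM in CTRL and 3.62, 2.93 and 2.83 in 2B17 (-0.30, adjusted *P* = 0.351), and the contrast between the lines was -1.03 (SE 0.231, adjusted *P* = 0.00176).

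*ABCA3*, which loads surfactant lipid into lamellar bodies of the lung (ENSG00000167972, chromosome 16 from 2275881 to 2340746 on the minus strand), had the largest rise in MEC1 after *ABCC8*. It went from 29.5, 30.04 and 31.7 CPM in MEC1-CTRL to 42.9, 41.4 and 45.01 in MEC1-2B17, 1.42-fold higher (0.50, SE 0.0496, adjusted *P* = 1.25e-07), with no overlap. In JVM2 it was at 10.4, 11.2 and 10.6 CPM in CTRL and 10.6, 12.2 and 11.2 in 2B17, which overlapped (0.07, adjusted *P* = 0.675), and the contrast between the lines was 0.44 (SE 0.116, adjusted *P* = 0.00663). *ABCA7*, a phospholipid transporter of macrophages and brain, rose in MEC1 from 26.1 ± 0.558 to 32.3 ± 2.65 CPM (0.31, SE 0.0579, adjusted *P* = 0.000256). Its libraries were at 25.48, 26.55 and 26.3 CPM in MEC1-CTRL and 32.49, 29.62 and 34.92 in MEC1-2B17. In those of JVM2 it was at 20.63, 19.68 and 19.1 CPM in CTRL and 15.14, 19.25 and 20.59 in 2B17. In JVM2 its difference was -0.12 (95% interval -0.35 to 0.11).

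The soluble members moved little. Of *ABCE1* and *ABCF1* to *ABCF3*, 1 rose in MEC1 and 1 fell in JVM2, where 41.7% and 29.3% of all genes were called. *ABCF2*, a cytosolic protein of the family acting on ribosomes (ENSG00000033050, chromosome 7 from 151211484 to 151227205 on the minus strand), was at 142, 128 and 135 CPM in JVM2-CTRL and 118, 118 and 109 in JVM2-2B17, 1.17-fold lower with no overlap (-0.23, SE 0.063, adjusted *P* = 0.0157). The call was lost without JVM2-CTRL replicate 1 (0.0728), JVM2-CTRL replicate 3 (0.0696) or JVM2-2B17 replicate 3 (0.0602). In MEC1, *ABCF2* was at 162, 159 and 161 CPM in CTRL and 166, 159.5 and 163 in 2B17 (0.02, 95% interval -0.05 to 0.08), and 36.5% of its 50-base stretches are shared, mainly with the readthrough gene *ABCF2-H2BK1*. *ABCF3* rose in MEC1 from 49.8 ± 0.645 to 54.5 ± 1.51 CPM (0.13, SE 0.0419, adjusted *P* = 0.0182), a call lost without MEC1-CTRL replicate 2 (0.0724), MEC1-2B17 replicate 1 (0.0647) or MEC1-2B17 replicate 3 (0.0506). In JVM2 it was not called (-0.18, adjusted *P* = 0.0584), nor was *ABCF1*, which promotes initiation of translation (-0.16, adjusted *P* = 0.055). *ABCE1* was called in neither line, with 0.10 in MEC1 (95% interval 0.01 to 0.18) and 0.05 in JVM2 (95% interval -0.10 to 0.19), and in MEC1 its adjusted *P* without MEC1-CTRL replicate 3 was 0.00873. Of the 7 release, rescue and initiation factors listed as partners, 1 rose and 1 fell in each line, beside the same shares of all genes. *EIF2S3*, a subunit of initiation factor eIF2, was the one that rose in both (for MEC1 0.30, adjusted *P* = 2.89e-07; for JVM2 0.45, adjusted *P* = 8.48e-05).

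The potassium channel subunit *ABCC8*, the sulfonylurea receptor, was detected at few counts and rose in MEC1. It had 11, 5 and 7 counts in MEC1-CTRL and 40, 18 and 22 in MEC1-2B17, a ratio of summed counts of 3.75 (95% interval 2.33 to 6.24, covering counting error only) and a fitted difference of 1.89, SE 0.361, adjusted *P* = 0.00031. In JVM2-CTRL no read was counted and JVM2-2B17 had 2, 5 and 3 counts, too few to be tested. In those CTRL libraries a count of 0 allows up to 0.28 to 0.318 CPM, beside 0.181, 0.563 and 0.339 CPM in JVM2-2B17. The other channel subunit, *ABCC9*, was at 3.42, 3.46 and 2.95 CPM in CTRL and 3.35, 3.37 and 3.34 in 2B17 in MEC1 (0.03) and was called in neither line.

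The difference between 2B17 and CTRL cells was not the same in the lines for 12 of the 28 members tested (42.9%). Of 15130 genes, 32% passed the same interaction test. Of the 12, 7 were more positive in MEC1 and 5 more negative. The count was 13 without MEC1-CTRL replicate 3 and 10 without JVM2-2B17 replicate 2. Among the 5 were *ABCA2*, *ABCA6*, *ABCD2* and *ABCC4*, all lower in MEC1-2B17. The 7 were *ABCB9*, *ABCA7*, *ABCA3*, *ABCC1*, *ABCF3*, *ABCC10* and *ABCF2*. *ABCC1* and *ABCF3* were among those called in MEC1 whose JVM2 difference had the opposite sign without passing the threshold. Depth and the kind of control cell differed between the lines and cannot be told apart from line in this test. The rise of *UGT2B17* itself also differed, with a contrast of 0.47 by the same test (SE 0.129, adjusted *P* = 0.00771).

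The CTRL cells of the lines differed in most members. Of 28 tested, 23 (82.1%) differed, 10 higher and 13 lower in MEC1-CTRL than in JVM2-CTRL, where 78.3% of 15130 genes did, 39.6% higher and 38.7% lower. The median absolute difference was 0.51 over the members and 0.64 over all genes. Without MEC1-CTRL replicate 3 the count was 21. Without TMM scaling, on library size alone, the median difference of all genes moved by 0.16 and 20 members were called, 12 higher and 8 lower. Line, control construct, antibiotic, depth and sequencing site cannot be told apart here. CPM in this comparison are scaled over all 12 libraries and so differ slightly from those above. Members in the MEC1 table alone were not tested here. *ABCB1* was the best counted of them, at 20.9 ± 1.28 CPM in MEC1-CTRL on the scale of that line. The JVM2 table, which does not list it, held no gene with fewer than 10 counts over its 6 libraries.

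*ABCA12* separated the lines most. It loads ceramides into lamellar granules of keratinocytes (ENSG00000144452, chromosome 2 from 214931542 to 215138626 on the minus strand), and it had 5, 2 and 4 counts in the MEC1-CTRL libraries against 1583, 1735 and 1532 in those of JVM2-CTRL, despite their lower depth. At 169, 172 and 174 CPM it was the fourth highest member of JVM2-CTRL per kb, and the ratio of CPM between the lines was 1740 (95% interval 970 to 3480, covering counting error only). In JVM2 its arms did not overlap, at 158, 162 and 163 CPM in CTRL and 150.5, 117 and 154 in 2B17, and the difference was not past the threshold (-0.19, adjusted *P* = 0.123).

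Other members of subfamily A lay higher in MEC1. *ABCA2* was at 9.53, 10.2 and 11.6 CPM in MEC1-CTRL and 0.746, 1.29 and 0.793 in JVM2-CTRL, 10.8-fold higher (3.44, SE 0.216, adjusted *P* = 6.11e-12). *ABCA6* was at 19.5, 19.2 and 16.9 against 3.94, 3.28 and 5.33 CPM, 4.47-fold higher (2.16, SE 0.129, adjusted *P* = 2.79e-12). *ABCA3* was at 28.1, 28.5 and 29.97 against 11.1, 11.9 and 11.3 CPM, 2.52-fold higher (1.33, SE 0.0781, adjusted *P* = 2.01e-12). The MEC1 falls of *ABCA2* and *ABCA6* therefore left both above their JVM2 levels, as the plot by library shows. *ABCB4* (24.4, 22.1 and 18.6 against 14.8, 13.1 and 13.04 CPM, 0.67, adjusted *P* = 7.88e-06) and *ABCD4* (40.7, 38.3 and 37.98 against 25.5, 24.5 and 24.6 CPM, 0.65, adjusted *P* = 1.64e-08) were also higher in MEC1-CTRL. Smaller differences in that direction were those of *ABCB10* (0.57, adjusted *P* = 1.21e-08), *ABCE1* (0.37, adjusted *P* = 3.15e-05), *ABCC4* (0.25, adjusted *P* = 0.000304) and *ABCA7* (0.23, adjusted *P* = 0.0245). That of *ABCA7* was not past the threshold without JVM2-CTRL replicate 2 (0.0573) or 3 (0.0725). *ABCC8* was called as well, on counts that fall below the limit set by 0 counts in JVM2-CTRL, and no fold is given. Without any 1 of the 6 MEC1 libraries it had too few counts to be tested.

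Lower in MEC1-CTRL, *ABCA5* was at 16.3, 16.5 and 14.1 against 32.1, 38.5 and 38.5 CPM, 2.32-fold lower (-1.22, SE 0.105, adjusted *P* = 1.24e-09). *ABCD2* was at 15.9, 15.6 and 15.03 against 28.8, 29.4 and 34.8 CPM (-0.996, SE 0.0799, adjusted *P* = 3.6e-10), and *ABCC10* at 11.98, 12.2 and 12.6 against 21.5, 23.9 and 22.7 CPM (-0.89, SE 0.0711, adjusted *P* = 3.5e-10). In these the lines did not overlap. *ABCA10*, at 0.500, 0.524 and 0.542 against 0.746, 0.596 and 1.36 CPM, just passed (-0.76, adjusted *P* = 0.0467), a value that rested on JVM2-CTRL replicate 3, without which it was -0.35 (adjusted *P* = 0.492). Its call was also lost without any 1 of the libraries other than JVM2-CTRL replicate 2, MEC1-2B17 replicate 2 and MEC1-2B17 replicate 3. It was lost as well with DESeq2 (0.0792), on library size alone (0.109), without a filter on low counts (0.0581), with the replicate number as a block (0.0614) and with the CTRL libraries alone (0.0582). Exons of *ABCA10* overlap those of *ABCA5* on the same strand. Of its 50-base stretches 5% are shared with other genes, *ABCA5* among them, and the part of this in its difference was not tested. Differences from -0.51 to -0.21 were those of *ABCF3*, *ABCB9*, *ABCC9*, *ABCC1*, *ABCD3*, *ABCF1*, *ABCB8* and *ABCC5*. On library size alone *ABCA10*, *ABCB8*, *ABCB9*, *ABCC5* and *ABCC9* were no longer called, while *ABCF2* was. *ABCC9* was also lost without JVM2-CTRL replicate 1 (0.0508) or 2 (0.118), and *ABCC5* without JVM2-CTRL replicate 3 (0.0613). *ABCB6*, *ABCC2* and *ABCF2* were not called. *ABCF2* was called without JVM2-CTRL replicate 1 (0.13, adjusted *P* = 0.0402) and *ABCC2* without JVM2-CTRL replicate 2 (2.03, 0.00582). For *ABCB6* the 95% interval of the difference was -0.39 to 0.18.

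**Figure D3:**
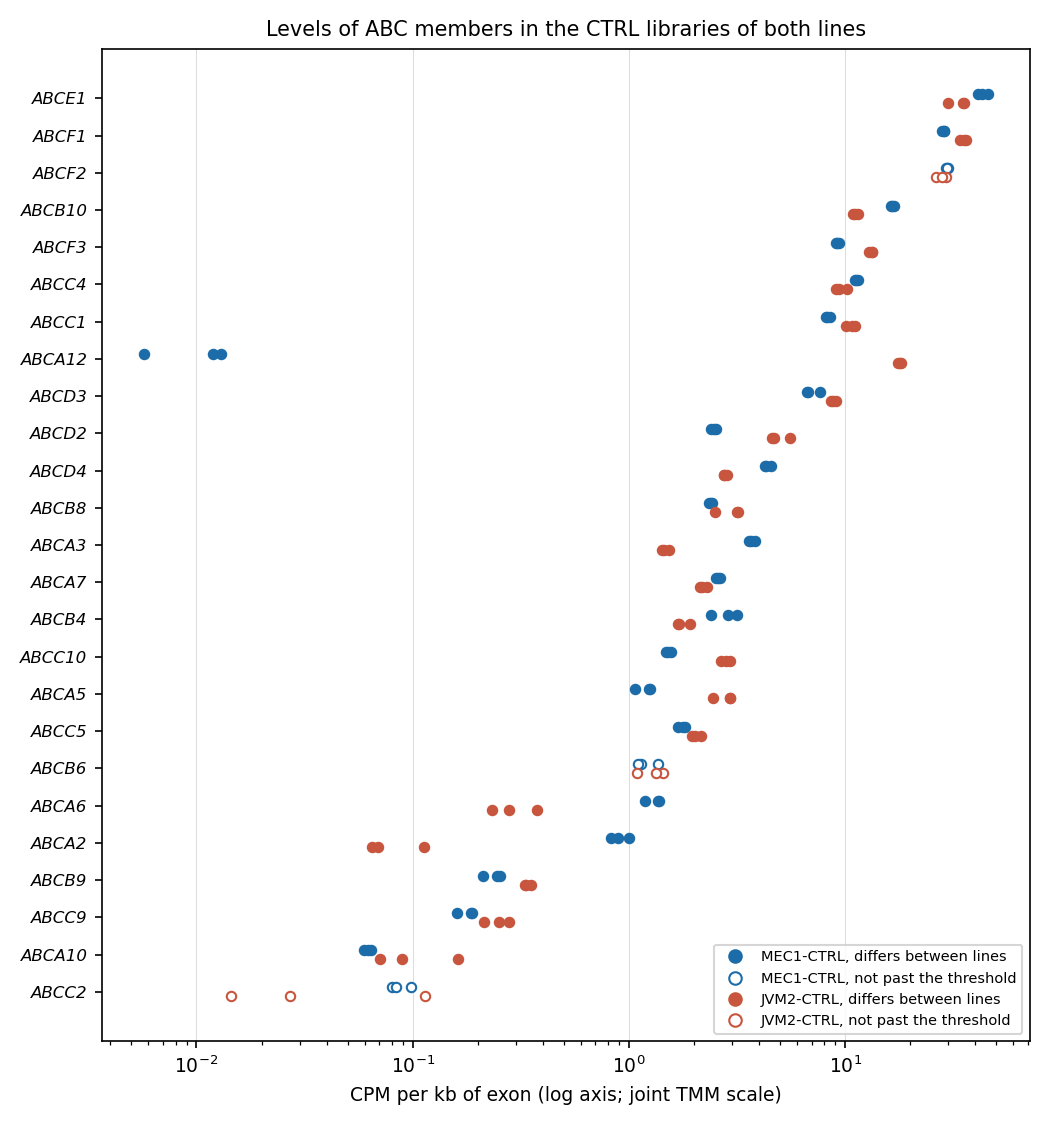
Level of ABC members in the CTRL libraries, as CPM per kb of exon (x axis, log scale, scaled over all 12 libraries), with MEC1-CTRL in blue, JVM2-CTRL in red and 1 point for each library. Filled points mark members that differed between the lines. ABCE1, ABCF1 and ABCF2 lie at the top in both lines, and the MEC1-CTRL and JVM2-CTRL points of ABCA12 are farthest apart. ABCC8, at 0 in JVM2-CTRL, is not drawn.

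Around the exporters, the enzymes and receptors of the prostaglandin pathway were counted from a list of 17 genes. In MEC1, 10 were tested, 1 rose and 3 fell, where 41.7% of all genes were called. In JVM2, 9 were tested, 2 fell and none rose, where 29.3% of all genes were called. The fallen genes, named after their values were seen, were *PTGER4*, a receptor of prostaglandin E2 (-2.63, adjusted *P* = 2.54e-08), *PTGES2* (-0.41, adjusted *P* = 6.78e-08) and *SLCO4A1* (-0.35, adjusted *P* = 0.00221) in MEC1, and *CBR1* (-0.77, adjusted *P* = 8.48e-05) and *PTGER2* (-0.64, adjusted *P* = 0.00516) in JVM2. None of these falls was called in both lines. In JVM2, *PTGER4* (0.27), *PTGES2* (0.14) and *SLCO4A1* (-0.29) were not called. In MEC1, *CBR1* (-0.10) was not called and *PTGER2* was not tested. The gene that rose in MEC1 was *PTGR2* (0.34, adjusted *P* = 0.00314), which was not called in JVM2 (-0.12, adjusted *P* = 0.859). *PTGES2* lies on chromosome 9, in the part whose genes were lower in MEC1-2B17. Of 5 genes of glucuronidation tested in each line, 4 rose in MEC1 and 1, *UGT2B17* itself, rose in JVM2, where 20% of all genes were called as higher in MEC1 and 14.1% in JVM2. The 4 were *UGT2B17* itself, *UGT2B15* (0.81, adjusted *P* = 0.000567), *UGDH* and *SLC35D1* (0.15, adjusted *P* = 0.00804). Of the stretches of 50 bases in the *UGT2B17* transcript, 22.1% also occur in another gene, first of all *UGT2B15*, so the count of *UGT2B15* is uncertain. *UGDH*, which makes the glucuronic acid donor, rose in MEC1 (0.27, adjusted *P* = 1.98e-06) and had a difference of -0.03 in JVM2 (adjusted *P* = 0.833).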

How the data were processed

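Reads were trimmed, aligned and counted per gene by the authors (Trimmomatic, TopHat2 2.0.14, HTSeq and hg38 in the submitters' processing notes), and the deposited values used here are whole-number read counts per gene in 1 table for each line. The tables also hold 12 columns of normalized values and the authors' own comparisons (log fold changes, log CPM and *P*-values), which were not used. Of the counts, MEC1 and JVM2 were fitted apart for the arms and together, over the genes in both tables, for the interaction and the CTRL levels. edgeR 4.0.16 was used in R 4.3.3, with the default expression filter (10 counts, 15 in total), TMM scaling, quasi-likelihood tests and Benjamini-Hochberg adjustment at 0.05. SEs were taken from the fold change and the F statistic. The fits were also run on counts simulated with the same relative spread for every gene and no outlying library. That setting cannot show how they behave with gene-specific spread or outlying libraries. DESeq2 1.42.0 and the settings in the closing section were alternatives. Exon lengths and positions came from GENCODE v44 (GRCh38), and promoter windows from RefSeq. Intervals on counts are at 95% and cover counting error only, and a count of 0 allows 3 counts. Named with every library were *ABCC4*, *ABCB6* and the 3 largest called rises and falls of each line. So were the 5 largest called differences between the CTRL cells in each direction and *ABCC8*, which had no count in JVM2-CTRL. Other called members were named with their difference or, for smaller differences between the CTRL cells, under a range. Genes of the other lists were named where called in both lines. Any further gene was named after its values were seen. Some members enter the counts but are not reported here by name or drawn. The members and lists were chosen with earlier results of these data known. *ABCA4*, *ABCA8*, *ABCB5*, *ABCB11*, *ABCC11*, *ABCG4*, *ABCG5* and *ABCG8* were not analysed here.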

Additional observations from a re-analysis of the deposited data

Results flagged for a closer look

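The results below are members for which the difference between 2B17 and CTRL cells was not the same in the 2 lines, by the interaction term of edgeR's quasi-likelihood test (MEC1 difference minus JVM2 difference, log2). Lower in MEC1 were *ABCA2* (-2.42, SE 0.376, adjusted *P* = 4.4e-05), *ABCA6* (-1.03, SE 0.231, adjusted *P* = 0.00176), *ABCD2* (-0.96, SE 0.118, adjusted *P* = 2.42e-06) and *ABCC4* (-0.24, SE 0.0759, adjusted *P* = 0.0174). Higher in MEC1 were *ABCB9* (0.77, SE 0.249, adjusted *P* = 0.0229), *ABCA7* (0.44, SE 0.128, adjusted *P* = 0.0119), *ABCA3* (0.44, SE 0.116, adjusted *P* = 0.00663), *ABCC1* (0.34, SE 0.0702, adjusted *P* = 0.000778), *ABCF3* (0.31, SE 0.0716, adjusted *P* = 0.00224), *ABCC10* (0.28, SE 0.0999, adjusted *P* = 0.0344) and *ABCF2* (0.25, SE 0.0727, adjusted *P* = 0.0115).

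Some of these rested on 1 library. *ABCC4* had an adjusted *P* of 0.0549 without JVM2-CTRL replicate 1 (-0.21), and *ABCA7* one of 0.0725 without JVM2-2B17 replicate 1 (0.30). *ABCB9* was lost without JVM2-CTRL replicate 1 (0.73, 0.054) or JVM2-2B17 replicate 1 (0.57, 0.11). *ABCC10* was lost with DESeq2 (0.0668), with the replicate number as a block (0.0514) and without any 1 of 8 of the 12 libraries, at adjusted *P* from 0.0533 to 0.108, and held without MEC1-CTRL replicate 3, MEC1-2B17 replicate 1, MEC1-2B17 replicate 2 or JVM2-CTRL replicate 1. The other 7 named above passed without any 1 library. *ABCB8* passed without JVM2-CTRL replicate 2 (0.36, 0.0172) and *ABCC5* without MEC1-CTRL replicate 3 (-0.25, 0.0478).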

How the results depend on the processing

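No member's difference changed sign past the threshold under any setting tried. Between the MEC1 arms, 15 members were called and other tools, scalings and filters gave 13 to 16, while a test against a fold change of 1.3 gave 7, which it does by asking for a larger change. Leaving out 1 library gave 13 to 17. In JVM2, 3 were called and other settings gave 2 to 4. The 1.3-fold test gave 0, with 3 at an unadjusted *P* under the threshold. Leaving out 1 JVM2 library gave 0 to 6: 0 without JVM2-CTRL replicate 1 (edgeR, 5 unadjusted; DESeq2 was not run on that set), 1 without JVM2-CTRL replicate 2, JVM2-CTRL replicate 3 or JVM2-2B17 replicate 1, and 6 without JVM2-2B17 replicate 2, with *ABCB10* (-0.22, adjusted *P* = 0.0197), *ABCF3* (-0.16, 0.0444) and *ABCA2* (1.20, 0.0111) added. The interaction was called for 12 members, for 11 or 12 in other settings and for 9 to 13 without 1 library. Between the CTRL cells 23 were called, 20 to 23 in other settings, 20 to 24 without 1 library, and 5 against a fold change of 2. Of single members' differences, 918 of those without 1 library stayed on their side of the threshold, 13 came past it and 47 were lost, and in the other settings these were 817, 9 and 45. The causes of these losses were not tested beyond the fewer libraries and stricter tests that define them. Requiring 10 counts in every library leaves *ABCA9*, *ABCA10*, *ABCC8* and *ABCG2* untested in MEC1, *ABCA2* in JVM2, and *ABCA2*, *ABCA10*, *ABCA12*, *ABCC2* and *ABCC8* between the lines.

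Deviations of same-numbered CTRL and 2B17 libraries from their group means had correlations of -0.04, -0.01 and 0.04 in MEC1 and 0.09, 0.12 and -0.01 in JVM2. With 3 libraries in each group these small values cannot decide whether the numbers pair the samples, and no source used here states a pairing. With the replicate number as a block, 16 members were called in MEC1, with *ABCB4* added (0.0332), and 3 in JVM2. In the interaction 12 were called, with *ABCC10* lost (0.0514) and *ABCB8* added (0.26, 0.0434), and 22 between the CTRL cells, with *ABCA10* lost (0.0614). JVM2 libraries were the shallower ones, which limits what could be detected for low members there. The spread between replicates was larger there as well. The common biological coefficient of variation estimated by edgeR was 6.92% in JVM2 and 4.22% in MEC1.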

Other observations

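The peptide transporters of antigen presentation, *TAP1* and *TAP2*, are ABC proteins whose symbols lie outside the family as defined here. They pump peptides into the endoplasmic reticulum for loading on MHC class I. Both were lower in the 2B17 cells of both lines by edgeR's quasi-likelihood test. *TAP1* fell by 0.50 in MEC1 and by 0.50 in JVM2 on the log2 scale, and the contrast between the lines was 0.00 (SE 0.0719, adjusted *P* = 0.988). *TAP2* fell by 0.25 in MEC1 (adjusted *P* = 0.000153) and by 0.26 in JVM2 (adjusted *P* = 0.0469, and 0.12 with DESeq2), with a contrast of 0.02 (SE 0.0946, adjusted *P* = 0.92).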
